A study of Rattus norvegicus with 5 samples.

Results

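Unplaced and random sequence of the rat genome assembly was examined for pileups of reads in ChIP-seq (sequencing of immunoprecipitated chromatin) with an antibody to PARP1 in the central amygdala. Members were all listed peaks on chromosome Un or on a piece named as random (1_random, Un_random and so on) with a height of at least 3 overlapping reads. Overlapping peaks of the 4 lists were merged, which gave 37914 regions of 2374447 in the whole series, or 1.60%. Of these, 21195 lay on Un and 16719 on the 22 random pieces. Coordinates are those of the deposited lists on rn4.

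The tissue came from male Sprague Dawley rats trained for 10 days in a place preference task. Per the labels, cocaine (15 mg/kg, intraperitoneal) and saline were given on alternating days, with 20 min in the matching compartment after each injection. A 15 min test of preference followed 24 h later, and brains were frozen as soon as it ended. The labels assign 1 library to high cocaine preference, 1 to low cocaine preference and 2 to saline-only controls. Each library pooled the central amygdalae of 2 rats, and the age of the rats is not given in the labels. There was therefore no replicate of either cocaine group, and the 2 saline libraries gave the only spread within a group. The lists name no genes, so the tissue label could not be checked against markers. In bulk tissue, a change in the mix of cells and a change within cells cannot be told apart.

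PARP1, poly(ADP-ribose) polymerase 1, is an abundant nuclear enzyme that binds DNA breaks and nucleosomes and attaches chains of ADP-ribose to proteins. It is also found in nucleoli and at repeat-rich chromatin. Pieces named random were assigned to a chromosome without a position on it, and Un holds sequence assigned to no chromosome. Such sequence is commonly rich in repeats, tandem arrays and near-identical duplicated segments, which assemblers cannot order. The sources used here do not give how reads that match several copies were placed or whether identical reads were collapsed. The input DNA sample was not analysed here.

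Where 4 values stand in a row, the cocaine libraries come first (high preference, then low preference), followed by saline replicate 1 and then replicate 2. Estimated depth was 15594470, 17552845, 6618031 and 17402838 reads, so saline replicate 1 stood at 0.380 times the depth of saline replicate 2. Heights were scaled by dividing them by this depth over its 4-library mean. A height under 3 counts as 3 reads in ratios, which is 6.48 scaled reads in saline replicate 1 and 2.44 to 2.75 in the others.

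Unplaced and random sequence held few of the low peaks and about as many of the tall ones as all placed chromosomes together. At the minimum of 3 reads it held 14298, 17244, 2911 and 18501 listed peaks, which were 2.03%, 1.79%, 4.03% and 1.98% of each list. At a minimum of 5 reads its share was 11.5%, 7.87%, 40.5% and 9.56%. Among peaks of at least 10 reads it was 48.5%, 48.6%, 51.6% and 49.4%, with 330, 354, 114 and 437 peaks. The 4 libraries thus lay close together at 10 reads, whereas the shallow saline replicate 1 stood apart from the other 3 at 5 reads. Among peaks of at least 100 reads the counts were 13 of 25, 13 of 22, 3 of 11 and 15 of 31.

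**Figure D1:**
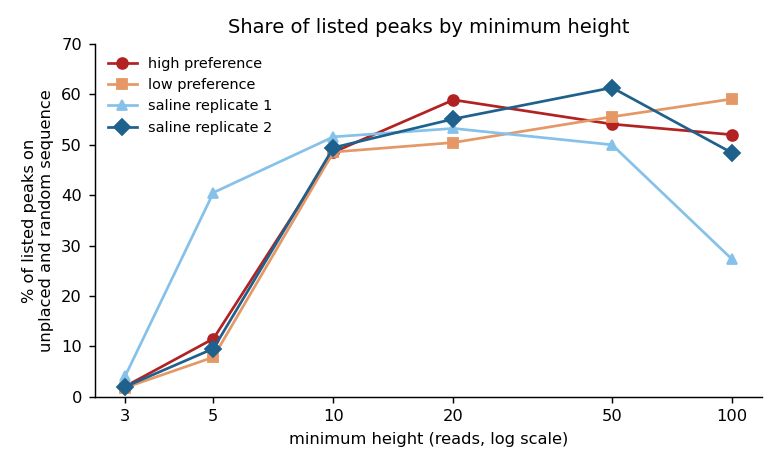
Share of listed peaks that lay on unplaced and random sequence (vertical axis, percent) against the minimum height (horizontal axis, reads, log scale), 1 line per library. The lines start at 1.79% to 4.03% at 3 reads and meet at 48.5% to 51.6% at 10 reads. Saline replicate 1 alone stands at 40.5% at 5 reads, and its last point rests on 11 peaks.

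Tall peaks were commoner among members than on placed autosomes in 4 of 4 libraries. Of member peaks, 0.832%, 0.661%, 1.41% and 0.843% reached at least 20 reads, against 0.0116%, 0.0117%, 0.0483% and 0.0136% on placed autosomes. Every library showed the same direction, with ratios of 71.9, 56.6, 29.2 and 62.2. The mean share was 0.936% ± 0.326 for members and 0.0213% ± 0.0180 for autosomes (SD, n = 4). Their difference of 0.915 percentage points had an exact two-sided sign-flip p of 0.125, the smallest that 4 libraries can give. Un had a higher share of tall peaks than the random pieces in each library, at 1.02%, 0.887%, 1.55% and 1.04% against 0.554%, 0.371%, 1.13% and 0.528%. Most member peaks stood at the minimum itself. Peaks at exactly 3 reads made up 70.4%, 71.0%, 66.8% and 69.6% of member peaks. On the random pieces, where all libraries listed 2 reads, 18321, 21105, 5486 and 20571 peaks lay just below the minimum and 4362, 5663, 680 and 5333 just at it.

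The share of all pileups on this sequence differed little between libraries, while the share of summed height did not. The running number in each list also counts pileups that were not listed, down to a single read. By that count, chosen after seeing the data, members' sequence held 1.69%, 1.65%, 1.73% and 1.71% of all pileups. Of the summed height of peaks of at least 3 reads it held 2.55%, 2.18%, 5.54% and 2.47%. High preference, low preference and saline replicate 2 lay within 2.18% to 2.55%. Without the 10 tallest regions the values were 2.47%, 2.12%, 5.19% and 2.40%, in the same order. For this share the cocaine libraries differed by less than the saline libraries did. Saline replicate 1, the shallowest library, stood apart in this share, and the part of its depth was not tested.

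Each of the 10 tallest regions was tall in every library. The first of them, ranked by mean scaled height, lay on Un_random at 6508845 to 6509485, with heights of 246, 248, 130 and 274 reads. Its summits fell within 1 bp of each other in the 4 libraries. On Un at 38479450 to 38479925 the heights were 239, 280, 107 and 290 reads, and the summits spanned 2 bp. On Un at 46991711 to 46992271 they were 236, 216, 103 and 264 reads. In all of these the 3 deeper libraries were close and saline replicate 1 was lowest before scaling. The cocaine libraries differed from each other at neighbouring regions of Un. At 454332 to 455393 the heights were 120, 206, 69 and 221 reads. They were 121, 206, 65 and 212 at 448482 to 451313. High preference was the low one of the 3 deeper libraries at both. At 53734450 to 53734959 on Un, by contrast, low preference was the low one, with heights of 159, 88, 56 and 166 reads. Further regions of the 10 were on 1_random at 2541221 to 2541721 (138, 168, 66 and 185 reads) and on Un at 29995090 to 29995381 (134, 129, 49 and 153 reads). The 10 regions together held 2.97%, 2.73%, 6.21% and 2.79% of the summed member height, so most of that height lay elsewhere.

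**Figure D2:**
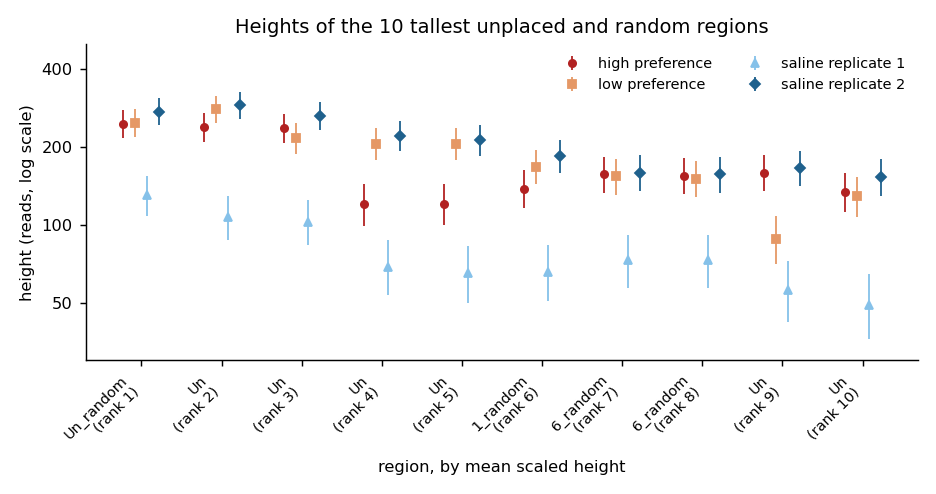
Heights in reads (log scale) of the 10 tallest regions in each library, ordered by mean scaled height, with exact 95% Poisson intervals that cover counting error only. Saline replicate 1 is lowest throughout. High preference (120 and 121 reads) falls below low preference (206 and 206) at ranks 4 and 5, and low preference (88 reads) below high preference (159) at rank 9.

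A pair of short regions on 6_random had an unusual shape. The first, at 1670027 to 1670089, was 62 bp long and reached 157, 154, 73 and 159 reads. Its neighbour at 1669876 to 1670007 was 131 bp long and reached 155, 151, 73 and 157 reads. The heights of the 2 regions differed by no more than 3 reads in any library. They were the only ones of 150 bp or less among the 83 members with at least 20 reads in the 3 deeper libraries. Tall members had a median length of 660 bp and ran up to 2831 bp.

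Positions of tall members were close between libraries. Over the 83 tall members the summits of the 3 deeper libraries spanned a median of 13 bp, and 22 bp with saline replicate 1 included. In 54 of the 83 (65.1%) the 3 deeper libraries lay within 50 bp. The widest span, 1008 bp, was on 16_random at 321572 to 323488, a broad region with heights of 24, 23, 9 and 25 reads.

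Low members were seen mostly in a single library, and this changed with height. Of all 37914 regions, 31723 (83.7%) were listed in 1 library only and 680 (1.79%) in all 4. On placed autosomes 90.6% were in 1 library and 0.0476% in all 4. Among members whose tallest library had 5 to 9 reads, 298 of 2527 (11.8%) were in all 4 libraries, against 0.864% of such autosomal regions. From 10 to 19 reads it was 198 of 246 (80.5%) against 74.6%, and from 20 to 49 reads 101 of 103 against 102 of 102. All 44 members of at least 50 reads were in all 4 lists. The shares of members and autosomes were thus furthest apart in ratio at low heights, a difference that was not tested. Member peaks were longer at the median from 5 to 19 reads, and the order varied by library above that. In peaks of 3 to 4 reads the median length was 93, 94, 92 and 94 bp for members and 94, 95, 92 and 95 bp on autosomes. In peaks of 5 to 9 reads it was 177, 173, 149 and 174 bp against 140, 148, 139 and 150 bp, and in peaks of 10 to 19 reads 344, 320, 270 and 370 bp against 257, 281, 249 and 285 bp. From 20 to 49 reads it was 352.5, 425, 450 and 411 bp against 418, 373, 355.5 and 392 bp, with high preference in the opposite order. At 50 reads and above it was 557, 544, 509 and 632.5 bp against 509, 506, 532 and 544 bp, with saline replicate 1 in the opposite order.

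Member peaks had a near neighbour more often than autosomal peaks, although members were sparser per Mb of listed span. Un held 279.6 regions per Mb of listed span and the random pieces a median of 457, against a median of 905 on the autosomes. Numbered pileups of any height were sparser too, at 1459, 1522, 764 and 1607 per Mb on Un against 4134, 4434, 2092 and 4431 on chromosome 1. Within 1 kb, 69.5%, 72.7%, 62.7% and 73.3% of member peaks had another, against 60.7%, 68.7%, 22.5% and 67.9% on placed autosomes. The share was higher for members in 4 of 4 libraries, by 14.6 percentage points ± 17.2 (SD, n = 4, exact two-sided sign-flip p = 0.125, the smallest possible). Without saline replicate 1 the mean difference was 6.08 points, so that library set much of its size. At 10 kb the order turned in the 3 deeper libraries, with 95.9%, 96.7% and 97.0% of member peaks in high preference, low preference and saline replicate 2 against 99.2%, 99.7% and 99.8% on autosomes. Saline replicate 1 kept it, with 79.4% against 52.3%. Over the 4 libraries the mean difference at 10 kb was 4.48 points (exact two-sided sign-flip p = 1).

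The 3 chains with most members held only low regions. Chained at gaps of up to 10 kb, the members formed 1966 chains, and 407 chains of at least 20 regions held 81.6% of them. The longest chain by number lay on Un at 14902798 to 15488061, with 629 regions in 585 kb. Chains of 450 regions on Un at 13288323 to 13702926 and of 373 on 19_random at 528331 to 901216 followed. None of the 3 held a region whose heights summed to 20 reads over the 4 libraries. They held 1075, 1085 and 1000.3 regions per Mb, against 848 to 988 per Mb over whole autosomes. The chains were picked for their number of members and leave out gaps of over 10 kb, whereas whole autosomes include such gaps. These densities are therefore not like for like. Only 1 of the regions in the 3 chains was listed in all 4 libraries.

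The taller members were few and lay in neighbourhoods. In all, 595 regions (1.57% of members) had heights that summed to at least 20 reads over the 4 libraries. On the placed autosomes 632 regions (0.0274%) did, and on X 121. Of the 595, 420 were on Un, 53 on Un_random, 43 on 1_random, 26 on 16_random and 23 on X_random. Along Un they were uneven. Of 74 windows of 1 Mb with members, 29 held none, and 5 windows held 157 of the 420 (37.4%). Chained at up to 10 kb, a step added after seeing the data, the 595 regions formed 169 neighbourhoods. Of these, 77 were single regions, and 35 had at least 5 regions and held 365 (61.3%). Those 35 comprised 26 on Un, 4 on Un_random and 5 on other random pieces. The one with most regions was on 1_random at 2528696 to 2581288, with 39 regions in 52592 bp. Its heights summed to 883, 939, 392 and 1132 reads, a scaled ratio of high to low preference of 1.06 (exact conditional binomial interval 0.964 to 1.16, for counting error only).

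The random pieces differed in how often a pileup grew to 3 reads. On placed autosomes 6.04% to 6.56% of numbered pileups did so in high preference, 7.60% to 8.60% in low preference, 1.19% to 1.35% in saline replicate 1 and 7.26% to 7.96% in saline replicate 2. The 22 random pieces spread more widely, from 4.84% to 12.4%, 6.89% to 12.3%, 0.773% to 11.0% and 6.00% to 13.3%. Some of these rest on few peaks, with 3 behind the 0.773% (17_random) and 70 behind the 6.00% (18_random). The smallest autosomal count was 1315, on chromosome 12 in saline replicate 1. The part of counting error in the wider spread was not tested. X_random was highest in each library, at 12.4%, 12.3%, 11.0% and 13.3%. The placed X was far lower, at 2.00%, 2.48%, 0.608% and 2.48%. X_random was also the piece on which the shallow library stood nearest to the others. It had no tall peak, with a tallest height of 19, 12, 7 and 14 reads, and it held 227, 238, 123 and 252 peaks of at least 3 reads on 1.98 Mb. The rats were male and so carried 1 X. A long region of X_random at 1571635 to 1576900 spanned 5265 bp at 9, 9, 6 and 9 reads.

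Against its own placed chromosome, a random piece was above in all 4 libraries in 5 of 21 cases and below or equal in all 4 in 3. The 5 were 1_random, 13_random, 16_random, 20_random and X_random, named after their values were seen. Of these, 13_random had only 10 peaks in saline replicate 1, and in low preference it stood at 7.76% against 7.75% on chromosome 13. On 20_random 11.3%, 11.5%, 3.53% and 12.6% of pileups reached 3 reads, against 6.17%, 8.14%, 1.27% and 7.65% on chromosome 20. On 1_random it was 7.98%, 9.38%, 3.83% and 9.33% against 6.39%, 7.88%, 1.28% and 7.85% on chromosome 1. In both the ratio to the placed chromosome was largest in saline replicate 1. Height was a separate matter. On 20_random the tallest region by mean scaled height had 8, 7, 5 and 10 reads at 98329 to 99354, and on 1_random 138, 168, 66 and 185. On some pieces it had only a few reads, for example on 10_random (5, 4, 0 and 4 reads at 5429 to 6232, where 0 means none of at least 3 listed) and on 17_random (4, 3, 4 and 5 at 376109 to 376456).

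**Figure D3:**
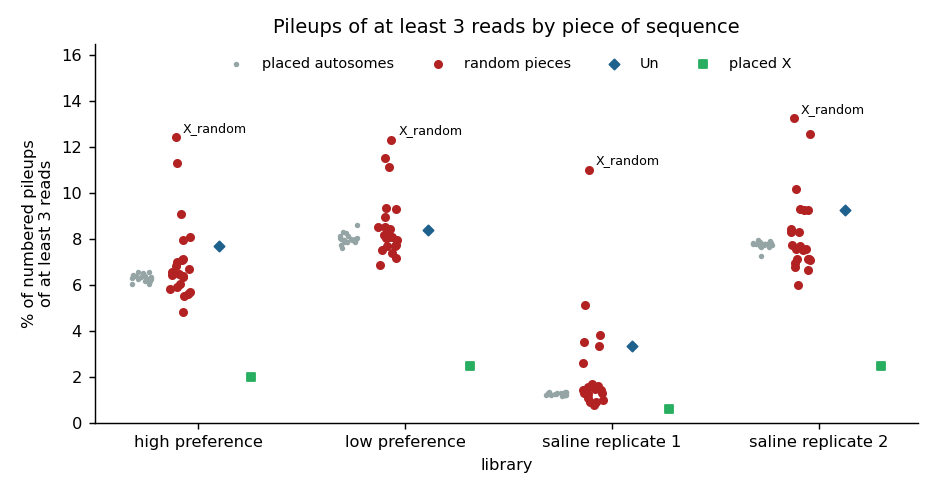
Percent of numbered pileups that reached 3 reads (vertical axis) on each placed autosome, each random piece, Un and the placed X, by library. Autosomes form a tight band in each library, the random pieces spread around it, and X_random lies at 11.0% to 13.3% in every library while the placed X lies at 0.608% to 2.48%.

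The longest members were broad and low. On Un at 49564765 to 49571871 a region of 7106 bp reached 11, 11, 7 and 12 reads. On Un at 50281565 to 50287081 a region of 5516 bp reached 9, 11, 6 and 11 reads. Both are from the 2 windows of Un with the highest counts of the 595 taller regions, 40 and 38. Only 159 of the 37914 members (0.419%) were at least 1 kb long, and the median was 97 bp.

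High and low preference were compared by a fixed rule of size, since 1 library per group allows no test. The rule called a region whose scaled heights in the 2 libraries differed by at least 2-fold. Of the 595 members, 31 (5.21%) were called for high preference, against 5.64% of the 1348 regions of the whole series that entered the rule. In the other direction 17 (2.86%) were called, against 2.6%. Both shares are near the background. The same rule between the saline libraries called 41 members (6.89%, background 7.72%) for saline replicate 1 and 13 (2.18%, background 1.85%) for saline replicate 2. The saline counts are no measure of the spread within a group, because the higher floor of saline replicate 1 makes some calls by itself. On Un at 8898805 to 8899128, for example, both saline libraries had 3 reads and the scaled ratio was 2.63. The counts between the cocaine groups were therefore not judged against them. The balance of directions depended on the scale: 20 and 32 regions were called for high and low preference with no scaling, and 21 and 22 with a scale from tall autosomal regions. Without saline replicate 2, 361 members entered and 17 and 4 were called, and without saline replicate 1, 510 entered and 22 and 13 were called.

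Most called members were low. In 27 of the 31 and 14 of the 17 the taller of the cocaine libraries had under 20 reads. The exact conditional binomial interval of the ratio lay beyond 1 in 7 of the 31 and in 3 of the 17, with 3 in each direction not listed in the lower library. The 31 and 17 were picked by these same heights, so these counts describe them only and are no test of a difference. The largest ratio, 5.07, was on Un at 70027222 to 70027609, with 18, 4, 7 and 15 reads. Low preference was the one low library there, and high preference lay beside saline. Next were 2 regions of Un not listed in low preference, at 49212211 to 49212449 (heights 11, 0, 4 and 14) and at 23383365 to 23383622 (heights 10, 0, 4 and 14). In the other direction the largest was on Un at 455922 to 456104, with 3, 12, 3 and 9 reads and a ratio of 3.55. Saline heights count towards the entry minimum of 20 summed reads, so the following counts are in part fixed by that minimum and are a description only. In 14 of the 31 saline replicate 2 was also at least 2 times above low preference, and in 15 of the 17 it was at least 2 times above high preference.

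**Figure D4:**
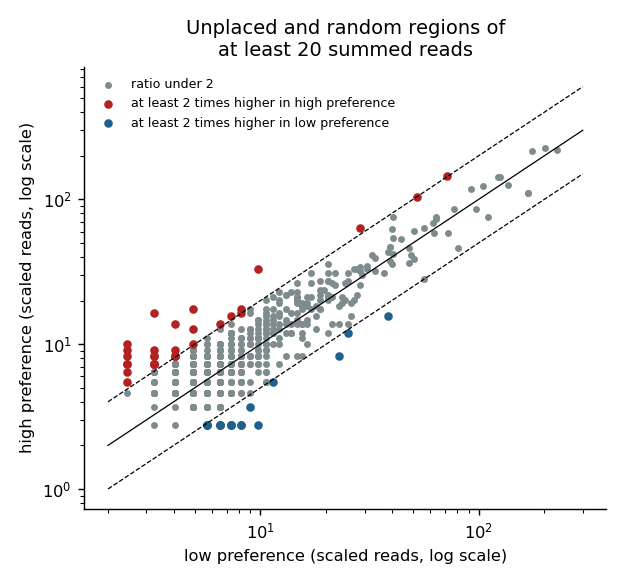
Scaled heights in high preference (vertical) against low preference (horizontal), both on log scales, for the 595 members of at least 20 summed reads. The solid line marks equal heights and the dashed lines a ratio of 2. The 31 and 17 coloured points lie mostly at low heights, where heights under 3 reads are set to 3.

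Over the tall members the median ratio of the 2 cocaine libraries lay near 1. The 83 tall members had a median ratio of high to low preference of 1.13, with a log2 SD over members of 0.39 and a range of 0.506 to 2.22. The 70 such autosomal regions had a median of 1.10. The median of unscaled heights was 1 for the members, so 1.13 is the ratio of the depths. Against saline replicate 2 the median was 0.944 for high preference and 0.862 for low preference, and saline replicate 1 stood at 0.933. The log2 SD over members of these ratios was 0.36, 0.29 and 0.49 in that order. By this spread the cocaine libraries were no closer to each other than to saline replicate 2. Members are not replicates, and these medians share libraries.

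Called members were spread out, with the 31 higher in high preference in 24 neighbourhoods and the 17 higher in low preference in 13. A few neighbourhoods of Un, chosen here after their values were seen, differed between the cocaine libraries in summed reads. At 53727129 to 53734959 the heights of 4 regions summed to 312, 178, 121 and 299 reads, a scaled ratio of high to low preference of 1.97 (1.64 to 2.39). Nearby, at 53532300 to 53543001, 4 further regions summed to 184, 108, 82 and 216 reads, a ratio of 1.92 (1.50 to 2.46). All regions of both had a ratio above 1, but the lowest, 1.13 in the first neighbourhood, is only the ratio of the depths. In the second neighbourhood high preference and saline replicate 1 stood at 0.951 and 0.998 times saline replicate 2, and low preference at 0.496 times. Low preference was thus the library that differed, and the other cocaine library lay with saline.

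In 2 other neighbourhoods high preference was lower than low preference. At 429791 to 480863 on Un 22 regions summed to 560, 868, 344 and 888 reads, a ratio of 0.726 (0.652 to 0.809), with high preference at 0.704, low preference at 0.969 and saline replicate 1 at 1.02 times saline replicate 2. At 23374231 to 23406714 19 regions summed to 444, 634, 193 and 773 reads, a ratio of 0.788 (0.697 to 0.891). There the saline libraries differed from each other as well, with saline replicate 1 at 0.657 times saline replicate 2. Single regions within that neighbourhood went opposite ways. At 23378866 to 23379785 the heights were 17, 47, 13 and 70 reads, at 23384594 to 23384906 they were 17, 9, 0 and 16, and at 23387503 to 23389202 they were 94, 95, 36 and 104. Over the 35 neighbourhoods of at least 5 regions the summed ratio of high to low preference ran from 0.726 to 1.38 with a median of 1.17. The ratio of the saline libraries, replicate 1 to replicate 2, ran from 0.657 to 1.42 with a median of 1.07. The limit of at least 5 regions leaves out both neighbourhoods near 53 Mb, with ratios of 1.97 and 1.92. These lie above both ranges, but the ranges do not cover neighbourhoods of fewer than 5 regions. Among those, higher ratios occurred on fewer reads. The ratio of high to low preference was 3.38 on 5_random at 48989 to 49100, a single region of 36 and 12 reads. Saline replicate 1 stood at 2.63 times saline replicate 2 on Un at 49730337 to 49732157, a single region of 7 reads in each. Both ratios near 53 Mb were therefore not judged against the ranges.

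**Figure D5:**
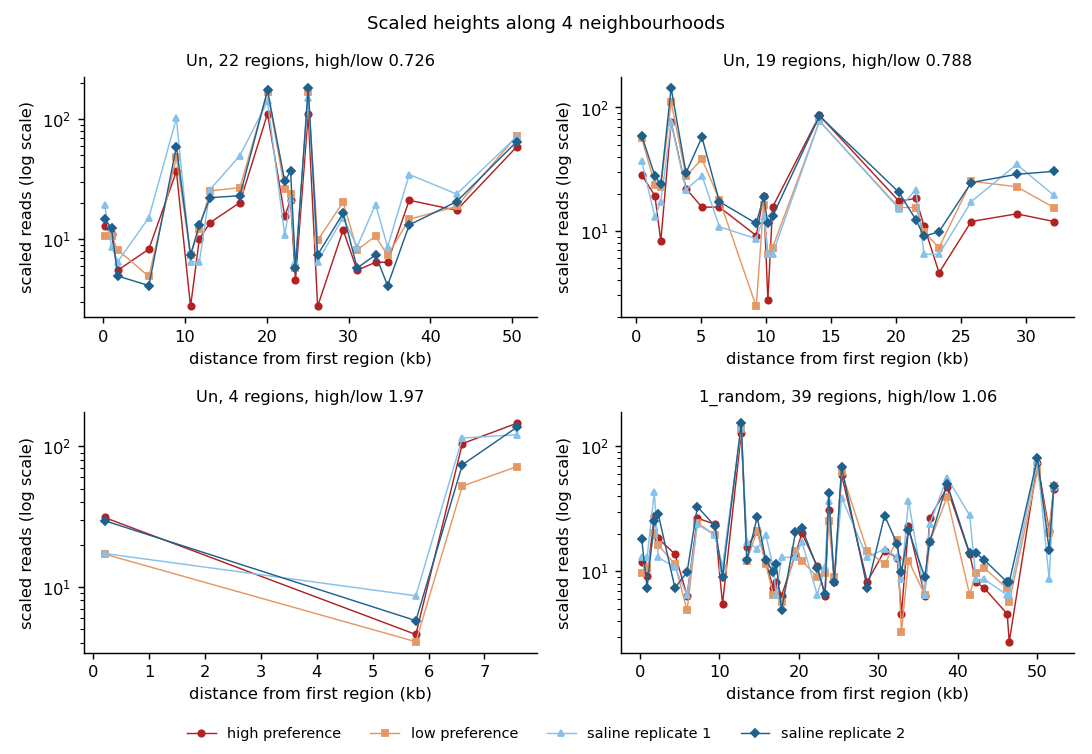
Scaled heights (log scale) of the regions along 4 neighbourhoods, against distance from the first region in kb. Lines join the regions of a library and do not show signal between them. In the first panel high preference lies under the others at the tallest regions, in the second the order changes along the panel, in the third low preference is lowest at the tallest regions, and in the fourth (39 regions of 1_random) the libraries overlap.

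By the 2-fold rule no member stood higher in the cocaine pair than in the saline pair, and no region of the whole series did (0%). The largest ratio among members was 1.61, on Un at 361715 to 362072, with 17, 13, 0 and 8 reads. Against the floor of saline replicate 1 such a call needed a high preference height of 15 reads and a low preference height of 16, which 121 of the 595 members had. In the opposite direction 2 members were called (0.336%, background 0.445%), both on Un. They were at 33765572 to 33765839 (heights 4, 4, 4 and 11) and at 8621486 to 8622168 (heights 3, 5, 5 and 11), both low. Without saline replicate 1, the cocaine pair was higher than the remaining saline library at 2 members and lower at 4. Without saline replicate 2 the counts were 1 and 12, the latter resting on saline replicate 1 alone with its higher floor.

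No member stood at least 4 times above the other 3 libraries in any library. In the whole series the share was 0.0742% for high preference, 0% for low preference, 0.0742% for saline replicate 1 and 0% for saline replicate 2. The nearest was on 5_random at 48989 to 49100, where high preference had 36 reads, low preference 12 and neither saline library a peak of at least 3. High preference stood 3.38 times above low preference there (exact conditional binomial interval 1.72 to 7.13). The region was 111 bp long, was the tallest of its piece, and its saline heights were under the minimum of 3 reads used here. Against the floor of saline replicate 1, a call for high preference needed 29 reads, which 64 of the 595 members had. With the scale from the sum of listed heights the count was 7 over all libraries.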

How the data were processed

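The deposited data were 4 peak lists of anti-PARP1 ChIP-seq, 1 per library and not pooled. Bowtie 0.12.7, Picard 1.37 and rn4 are named, with no role, per the submitters' processing notes. The sources used here give no peak caller or settings. The signal in column 6 of the deposited lists consisted of whole numbers, taken here to be the height of the pileup in reads without depth scaling. The deposited column 7 was not used. Coordinates are as deposited, and whether they count from 0 or 1 is not stated. Heights of 2 were listed on all random pieces, but on Un in high preference and saline replicate 1 only, hence the minimum of 3.

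Peaks overlapping by at least 1 bp were merged and each library took its tallest peak. For the estimated depth, 1 read per unlisted running number was added to the summed heights, leaving out the mitochondrial sequence. A height that was not listed counted as 3 reads in ratios. Regions of at least 20 summed reads entered the fixed rules of size, of 2-fold for pairs and 4-fold for a single library. Members and placed autosomes were compared over the 4 libraries by an exact two-sided sign-flip test. Intervals were exact Poisson or exact conditional binomial at 95%, and cover counting error only, since reads are not independent molecules. They treat a height, or a sum of heights, as a count of reads. A height is the largest pileup of its region, so the intervals are approximate. Named regions were the 10 tallest by mean scaled height, the tallest of each piece, up to 3 with the largest ratio in each direction of each comparison, the longest 3 and the 3 chains with most members. Others are said to be chosen after their values were seen. The members and lists were chosen with earlier results of these data known. The 2-fold rule was tried on simulated heights for high over low preference only. The rule for cocaine against saline and the 4-fold rule were not. Python 3.11.15, numpy 2.4.6, pandas 2.3.3, scipy 1.17.1 and matplotlib 3.10.9 were used. Other scales, minimums, merge gaps and left-out libraries were tried.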

Additional observations from a re-analysis of the deposited data

How the results depend on the processing

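With 1 library per cocaine group no comparison of groups had a test, and an exact sign-flip test over 4 libraries cannot go below p = 0.125. Shallow saline replicate 1 limits what a call against saline can reach, and its higher floor eases calls for saline. No paired analysis was possible because the labels carry no replicate numbers and each cocaine group has 1 library. Settings for numbered pileups, for the comparison of high and low preference without a saline library, and for neighbourhoods of taller members were chosen after seeing the data. The mean difference of members from autosomes was 0.259 to 5.07 points for tall peaks over the settings tried. For neighbours it was 4.48 to 48.5 points, but the lowest value, at 10 kb, was above 0 through saline replicate 1 alone, with the other 3 libraries in the opposite order. Without a saline library they were 0.767 to 0.943 and 6.08 to 17.7 points. The median ratio over tall members was 1 to 1.22.

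The number of members was 3122 at a minimum height of 5, 21195 on Un, 16719 on random pieces, and 27216 to 37186 without a saline library. At a minimum height of 5 the share of summed height was 18.0%, 12.7%, 41.9% and 15.2%. At the minimum of 3 reads it was 1.78% in saline replicate 1 for random pieces only. The share of numbered pileups in that library, which has no minimum height, was 1.73%. Members higher in high preference numbered 49 with the scale from listed heights, 20 with no scaling, 11 at 40 summed reads, 146 with no such minimum, 19 at a height of 5, 18 merged at 100 bp, 4 on random pieces and 17 to 22 without a saline library. Members higher in low preference numbered 32 with no scaling, 3 at 40 summed reads, 77 with no such minimum, 5 at a height of 5, 2 on random pieces and 4 to 13 without a saline library. Members higher in both cocaine libraries numbered 1 with no scaling and 1 to 2 without a saline library. Members higher in both saline libraries numbered 5 with the scale from listed heights, 0 with no scaling, 1 with tall placed regions, 0 at 40 summed reads, 58 with no such minimum, 0 at a height of 5, 1 merged at 100 bp and 4 to 12 without a saline library. Single-library calls numbered 7 with the scale from listed heights. The members that entered numbered 595 in the main setting, 205 at 40 summed reads and 37914 with no such minimum. They numbered 498 at a height of 5, 473 merged at 100 bp and 175 on random pieces. Shares called for high preference were 5.21% in the main setting, 5.37% at 40 summed reads and 0.385% with no minimum. For low preference they were 2.86%, 1.46% and 0.203%. Shares over the whole series are given for the main setting only. The cause of the changes in count was not tested.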
